A study of Homo sapiens with 56 samples.

Results

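GREB1, the growth-regulating gene named for its response to estrogen in breast cancer, was followed on Affymetrix expression arrays of PEO4 and PEO1 cells under 7 treatments each. The 3 probe sets that the array annotation assigns to the single symbol GREB1 (gene ID 9687, a protein-coding gene on chromosome 2) were 205862_at, 210562_at and 210855_at, out of 22215 probe sets with Affymetrix controls left out. GREB1 was 1 of 11963 genes that had a probe set with a single symbol. The 3 probe sets were taken by symbol, without regard to their values. GREB1 itself was chosen with earlier results of these data known, so its ranks among all probe sets are a description. In PEO1 alone 210855_at had the highest mean of the 3, at percentile 25.5 of all probe sets, against 22.7 for 205862_at. Probe set 205862_at had the highest mean over all 56 arrays and carries most of the account below. The other 2 are given beside it, since all 3 report on the same gene and are not replicates of one another.

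PEO4 and PEO1 are established high-grade serous ovarian cancer lines. Per the study's description, both were kept for 3 days in medium with charcoal-stripped serum, which removes steroid hormones, and were then treated for 3 h. The groups in each line were 1 µM 4-hydroxytamoxifen with 1 nM estradiol (4OHT+E2), 1 µM fulvestrant with 1 nM estradiol (ICI+E2, after the drug's laboratory code), 1 nM estradiol alone (E2), 1 µM 4-hydroxytamoxifen alone (4OHT), 1 µM fulvestrant alone (ICI), ethanol vehicle (vhc) and deprived cells at 0 h (0h), with 4 arrays in each of the 14 groups. All groups, the vehicle and 0h cells included, therefore share the hormone deprivation, and each line stands for 1 tumour-derived culture. The labels do not say that replicates were separate cultures, so p-values measure the spread between these arrays. Replicates are lettered A to D in PEO1 and numbered 1 to 4 in PEO4.

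Estradiol binds estrogen receptor alpha, a nuclear receptor that then recruits coactivators to its binding sites and raises transcription of nearby genes. GREB1 is among the early targets of the receptor in breast cancer cells, where its protein is also found with the receptor on chromatin and acts as a cofactor. Fulvestrant is a steroidal antagonist that lowers receptor protein, and 4-hydroxytamoxifen is an active metabolite of tamoxifen, a selective receptor modulator whose action depends on the tissue and the gene.

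Array medians lay between 7.85 and 7.92 in PEO4 and between 7.41 and 7.49 in PEO1 on the log2 scale, and the lines were treated as normalized separately, so levels were not tested across lines. Of the 12 measured markers of serous ovarian epithelium, 11 lay above the middle of all probe sets in each line, among them PAX8 and ESR1, while SOX17 was low in both. The same held for 1 of 5 fibroblast markers and for 0 of 3 leukocyte and 0 of 3 endothelial markers. The difference between 3′ and 5′ ACTB control probe sets, a measure of RNA integrity, ran from 0.24 to 3.41 over PEO4 arrays and from -0.25 to 0.14 over PEO1 arrays. The 2 highest values were PEO4 ICI replicate 1 (3.41) and PEO4 0h replicate 4 (2.28). All differences below are log2 differences of group means with the standard error of limma's fit over the 28 arrays of a line, and a probe set was called where its p, adjusted by Benjamini-Hochberg across the 22215 probe sets, was under 0.05. With 4 arrays per group throughout, precision depends on that number and on the spread between arrays in a line.

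The first comparison asked whether 3 h of estradiol raised GREB1. It did in both lines, by 3.23-fold in PEO4 and 3.91-fold in PEO1 at probe set 205862_at. In PEO4 this probe set read 10.46, 9.94, 10.11 and 10.30 in E2 cells, against 8.64, 8.40, 8.34 and 8.65 in vehicle cells. In PEO1 it read 7.77, 7.76, 7.83 and 7.59 in E2 cells, against 5.81, 5.53, 6.01 and 5.72 in vehicle cells. Every E2 array lay above every vehicle array of its line. The difference was 1.69 ± 0.13 in PEO4 (limma adjusted p = 2.27e-09) and 1.97 ± 0.09 in PEO1 (adjusted p = 1.14e-13). It ranked 2 of 22215 probe sets from the top in PEO4 and 1 of 22215 in PEO1. In each line 2 of the 3 GREB1 probe sets were called and both were higher, where 1.44% of all probe sets were called in PEO4 and 1.50% in PEO1.

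**Figure D1:**
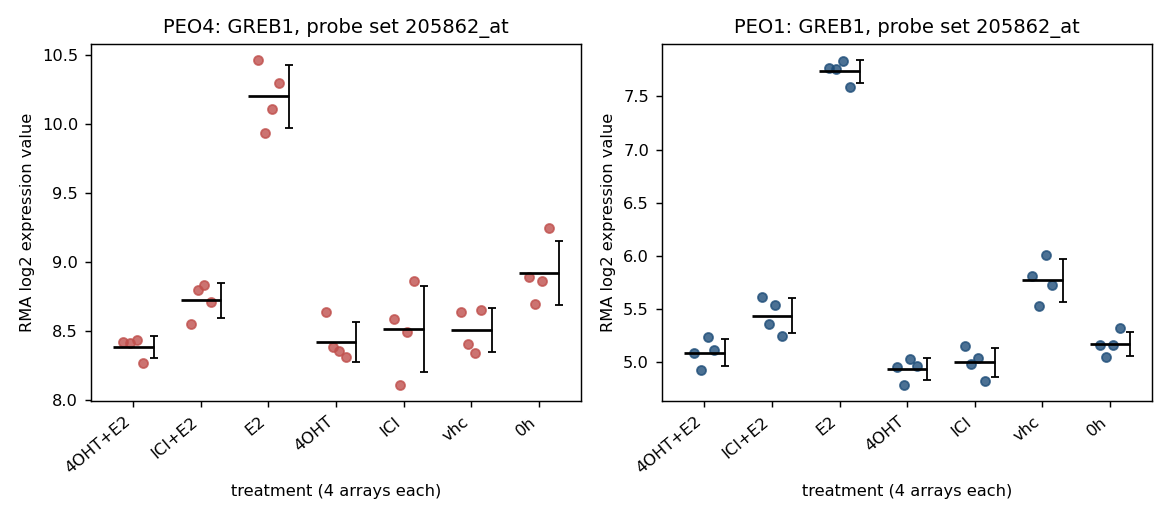
GREB1 (probe set 205862_at) on each array, as RMA log2 expression values (y axis) by treatment (x axis), PEO4 at the left and PEO1 at the right. Points are the 4 arrays of a group, horizontal lines the group means and bars the SD; the axes of the panels differ because the lines were treated as normalized separately. The E2 arrays stand above all others in both lines, and the PEO1 ICI and 4OHT arrays lie below all PEO1 vehicle arrays.

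The rise was smaller at the other probe sets. Probe set 210562_at read 4.80, 4.41, 4.75 and 4.57 in PEO4 E2 cells, against 4.25, 4.24, 4.22 and 4.07 in vehicle cells. In PEO1 it read 4.43, 4.49, 4.18 and 4.62 in E2 cells, against 3.96, 4.22, 3.78 and 3.77 in vehicle cells. The groups were apart in PEO4, and in PEO1 1 E2 array fell within the vehicle range. Its increase was 0.44 ± 0.08 in PEO4 (adjusted p = 0.000981) and 0.50 ± 0.09 in PEO1 (adjusted p = 0.00203). In PEO1 this call was lost when only E2 and vehicle arrays were fitted (adjusted p = 0.104). Probe set 210855_at did not pass, with differences of 0.19 ± 0.08 in PEO4 (adjusted p = 0.366) and 0.21 ± 0.07 in PEO1 (adjusted p = 0.246).

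Whether the probe sets differed in response was tested within arrays, with exact two-sided permutation tests of 4 against 4 arrays. The smallest p this design allows is 0.0286, and p-values were adjusted over 30 such tests. The E2 response of 205862_at exceeded that of 210562_at by 1.47 in PEO1 and that of 210855_at by 1.76 in PEO1, each at the smallest exact p (adjusted p = 0.0451). The same tests in PEO4 also gave the smallest p. Of the 30 tests, 19 had an adjusted p under 0.05, and all 19 were at the smallest exact p. The tests share arrays and probe sets, so these are not 19 independent results. A change on the log2 scale is compressed where a probe set's signal is near its background, and RMA values carry no detection calls, so the background of each probe set was not tested here. Among all probe sets of a line, the mean of 205862_at lay at the percentile 62.2 in PEO4 and 22.7 in PEO1, that of 210855_at at 26.0 and 25.5, and that of 210562_at at 5.82 and 6.96.

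**Figure D2:**
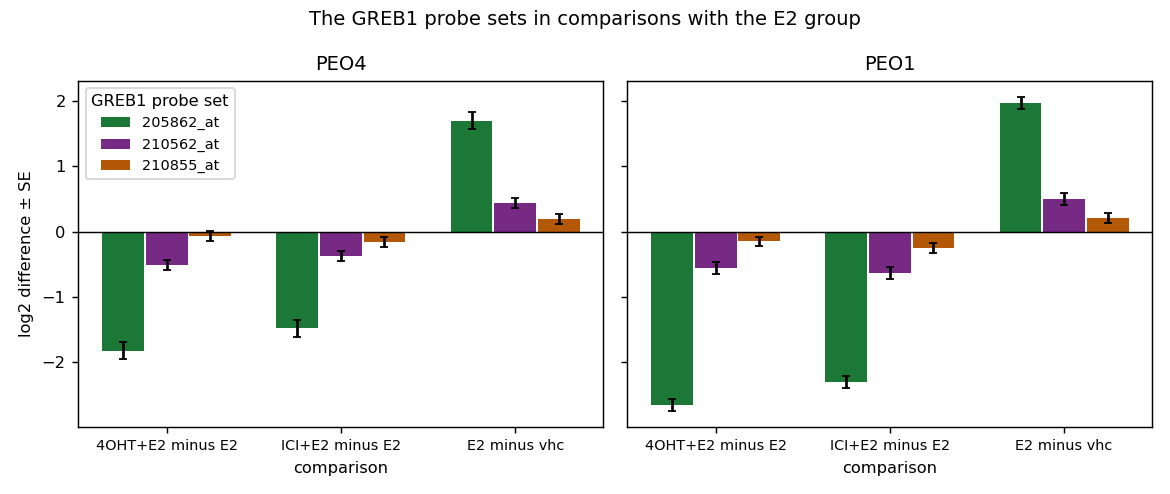
Log2 differences (y axis, bars with SE from limma) of the GREB1 probe sets in the 3 comparisons that involve E2 alone (x axis), PEO4 at the left and PEO1 at the right. Probe set 205862_at moved most in every comparison, 210562_at moved in the same direction, and 210855_at passed the threshold in none.

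The second question was whether an antagonist given with estradiol kept GREB1 down. With ICI+E2, 205862_at read 8.55, 8.80, 8.83 and 8.71 in PEO4 and 5.61, 5.36, 5.53 and 5.24 in PEO1. All of these lay below the E2 arrays given above. The difference from E2 was -1.48 ± 0.13 in PEO4 (adjusted p = 3.66e-08) and -2.30 ± 0.09 in PEO1 (adjusted p = 5.40e-15). The same 2 probe sets as with E2 were called, both lower, where 1.44% of all probe sets were called in PEO4 and 1.88% in PEO1.

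With 4OHT+E2, 205862_at read 8.42, 8.41, 8.43 and 8.26 in PEO4 and 5.08, 4.92, 5.24 and 5.11 in PEO1. The difference from E2 was -1.82 ± 0.13 in PEO4 (adjusted p = 2.12e-10) and -2.65 ± 0.09 in PEO1 (adjusted p = 1.64e-16). Again 2 of 3 probe sets were called lower, where 4.25% of all probe sets were called in PEO4 and 9.99% in PEO1. For both antagonists and in both lines, 205862_at had the lowest difference of all 22215 probe sets. Since these comparisons use the same E2 arrays as the comparison with vehicle, they are not independent of it.

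Probe set 210562_at fell by 0.37 ± 0.08 with ICI+E2 in PEO4 (adjusted p = 0.00739) and by 0.64 ± 0.09 in PEO1 (adjusted p = 5.57e-05), relative to E2. With 4OHT+E2 it fell by 0.51 ± 0.08 in PEO4 (adjusted p = 5.03e-05) and by 0.56 ± 0.09 in PEO1 (adjusted p = 0.000183). For 210855_at, the differences from E2 were -0.16 and -0.07 in PEO4 and -0.25 and -0.15 in PEO1, for ICI+E2 and 4OHT+E2 in that order, with adjusted p between 0.102 and 0.775. In the other 9 comparisons neither of these probe sets was called. There, 210562_at differed by -0.14 to 0.10 in PEO4 and by -0.14 to 0.08 in PEO1, and 210855_at by -0.15 to 0.13 in PEO4 and by -0.05 to 0.10 in PEO1, the smallest adjusted p being 0.309.

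The response to estradiol in the presence of an antagonist was then set against the response without one, as an interaction in the same fit. At 205862_at the response with ICI minus that without was -1.48 ± 0.18 in PEO4 (adjusted p = 2.81e-05) and -1.53 ± 0.13 in PEO1 (adjusted p = 5.15e-08). The response with 4OHT minus that without was -1.73 ± 0.18 in PEO4 (adjusted p = 2.56e-06) and -1.81 ± 0.13 in PEO1 (adjusted p = 1.91e-09). Of all probe sets, 0.617% were called for ICI and 0.387% for 4OHT in PEO4, and 0.257% for ICI and 0.455% for 4OHT in PEO1.

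What remained of the response under each antagonist did not pass the threshold. ICI+E2 stood above ICI by 0.21 ± 0.13 in PEO4 (adjusted p = 0.441) and by 0.44 ± 0.09 in PEO1 (adjusted p = 0.337, unadjusted p = 7.47e-05). In PEO1 each ICI+E2 array lay above each ICI array, and the difference ranked 1 of 22215 from the top. limma called 0 probe sets (0%) in that comparison in both lines, while 2949 in PEO4 and 722 in PEO1 had an unadjusted p under 0.05. 4OHT+E2 differed from 4OHT by -0.04 ± 0.13 in PEO4 (adjusted p = 0.973), where 0.0675% of all probe sets were called. In PEO1 the difference was 0.16 ± 0.09 (adjusted p = 0.726), where 0% were called and 1663 probe sets had an unadjusted p under 0.05.

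The third question was what the antagonists did without added estradiol. Here the lines gave different results. In PEO1, 205862_at fell to 5.15, 4.98, 5.03 and 4.82 in ICI cells and to 4.95, 4.78, 5.03 and 4.97 in 4OHT cells, and all 8 arrays lay below the vehicle arrays. The differences from vehicle were -0.77 ± 0.09 for ICI (adjusted p = 4.92e-05) and -0.83 ± 0.09 for 4OHT (adjusted p = 4.42e-06), and both were the lowest of the 22215 probe sets. In each comparison 1 of the 3 probe sets was called, where 0.0585% of all probe sets were called with ICI and 4.21% with 4OHT.

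In PEO4, 205862_at read 8.59, 8.11, 8.49 and 8.86 in ICI cells and 8.64, 8.38, 8.35 and 8.31 in 4OHT cells, both overlapping the vehicle arrays. The difference from vehicle was 0.00 with a 95% interval of -0.26 to 0.27 for ICI (adjusted p = 0.993) and -0.09 with an interval of -0.35 to 0.18 for 4OHT (adjusted p = 0.808). No GREB1 probe set was called, where 0.0765% and 3.93% of all probe sets were called with ICI and 4OHT. The intervals leave out falls of the size seen in PEO1.

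The difference between the lines was tested in 1 fit of all 56 arrays. The 4OHT change was higher in PEO4 than in PEO1 by 0.75 ± 0.16 (adjusted p = 0.0155), where 0.783% of all probe sets were called, and lost its call only without PEO1 vehicle replicate C (0.67, adjusted p = 0.0593) among the 16 arrays left out in turn. The ICI change was higher in PEO4 by 0.77 ± 0.16 (adjusted p = 0.0412), where 0.0630% of all probe sets were called. That call was less firm: it was lost on leaving out any one of PEO4 vehicle replicates 2 and 3, PEO4 ICI replicates 1, 3 and 4, PEO1 vehicle replicates A, C and D, or PEO1 ICI replicates B, C and D (0.66 to 0.79, adjusted p between 0.0547 and 0.140). PEO4 ICI replicate 1 was the array with the highest ACTB difference. Without it the value was 0.75 (adjusted p = 0.101).

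The antagonists with estradiol were also set against vehicle. In PEO1, 4OHT+E2 stood 0.68 ± 0.09 below vehicle (adjusted p = 3.66e-05, with 4.86% of all probe sets called). In PEO4 the difference was -0.13 ± 0.13 (adjusted p = 0.700, with 5.17% called). The line difference of 0.55 ± 0.16 did not pass (adjusted p = 0.106, with 0.828% called). ICI+E2 differed from vehicle by 0.21 ± 0.13 in PEO4 (adjusted p = 0.766, with 0.00450% called) and by -0.33 ± 0.09 in PEO1 (adjusted p = 0.540, with 0.0225% called). The line difference for ICI+E2 of 0.55 ± 0.16 did not pass (limma adjusted p = 0.863, unadjusted p = 0.00176, with 0.0405% called).

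**Figure D3:**
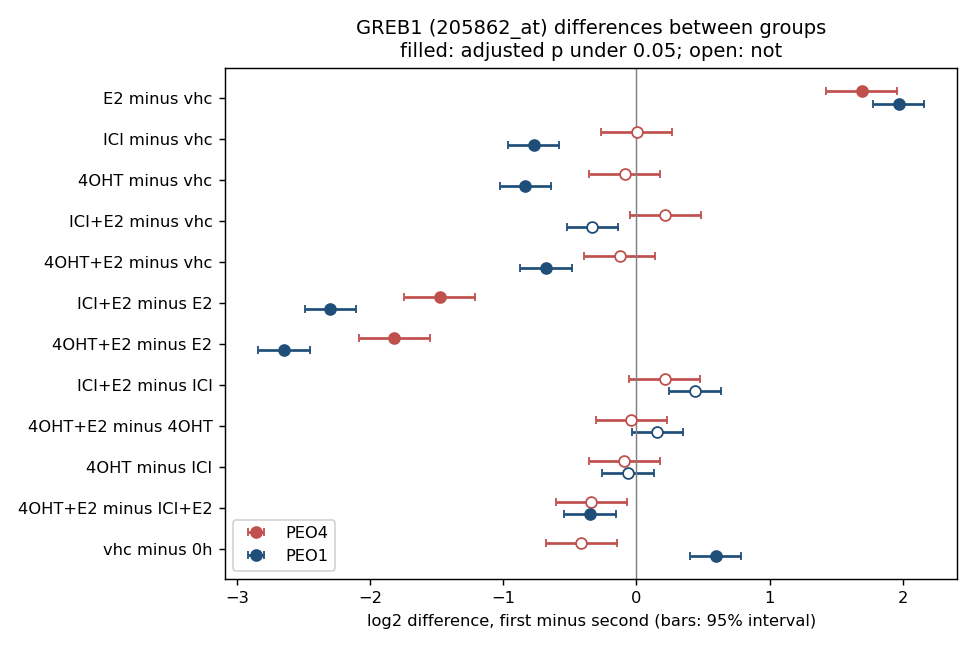
Log2 differences of GREB1 probe set 205862_at (x axis, points with 95% intervals from limma) for 12 comparisons (y axis), PEO4 above PEO1 in each. Filled points have an adjusted p under 0.05. ICI and 4OHT alone lie near 0 in PEO4 and below -0.7 in PEO1, and vehicle against 0h has opposite signs in the lines.

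Across lines, the E2 response itself was not distinguished: it was lower in PEO4 by 0.28 with a 95% interval of -0.61 to 0.06 for the difference (adjusted p = 0.917, with 0.320% of probe sets called). The fall from E2 was smaller in PEO4 for both antagonists, by 0.82 ± 0.16 for ICI+E2 (adjusted p = 0.00547, with 0.293% called) and by 0.83 ± 0.16 for 4OHT+E2 (adjusted p = 0.00181, with 1.40% called). Both kept their call with each array left out in turn. The estradiol response in the presence of an antagonist was not distinguished between the lines. PEO4 minus PEO1 was -0.23 ± 0.16 with ICI (limma adjusted p = 0.664) and -0.19 ± 0.16 with 4OHT (adjusted p = 0.947), with 0% called for each.

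The 2 antagonists were compared at their common dose of 1 µM and at 3 h. Alone, 4OHT differed from ICI by -0.09 in PEO4 with a 95% interval of -0.36 to 0.18 (adjusted p = 0.782, with 1.56% of probe sets called) and by -0.06 in PEO1 with an interval of -0.26 to 0.13 (adjusted p = 0.784, with 2.39% called). With estradiol, 4OHT+E2 lay below ICI+E2 by 0.34 ± 0.13 in PEO4 with an interval of -0.61 to -0.07 (adjusted p = 0.178, with 3.21% called). In PEO1 it fell by 0.35 ± 0.09 relative to ICI+E2 with an interval of -0.54 to -0.16 (adjusted p = 0.0410, with 2.71% called). All 4 arrays with 4OHT+E2 lay below all 4 with ICI+E2 in each line.

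The PEO1 call between the antagonists was a narrow one. It was lost when PEO1 ICI+E2 replicate A, B or C or PEO1 4OHT+E2 replicate A, B or D was left out (-0.29 to -0.37, adjusted p between 0.0580 and 0.152) and when only these 2 groups were fitted (adjusted p = 0.151). The PEO4 difference, of nearly the same size, was called with array weights (adjusted p = 0.0368) and with only these 2 groups fitted (adjusted p = 0.0267). The 4OHT+E2 arrays of PEO4 had ACTB differences of 0.48 to 1.74, against 0.48 to 0.79 in ICI+E2 arrays, and the part of RNA integrity in that difference was not tested.

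Vehicle-treated cells were also set against deprived cells at 0 h. In PEO1, 205862_at was higher in vehicle cells than in 0h cells, which read 5.16, 5.05, 5.16 and 5.32. The difference was 0.60 ± 0.09 (adjusted p = 0.000229), with 1 of 3 probe sets called where 5.66% of all probe sets were. In PEO4 the vehicle arrays lay below the 0h arrays, which read 8.89, 8.69, 8.86 and 9.24. That difference of -0.41 ± 0.13 did not pass (adjusted p = 0.0659, with 4.89% of probe sets called). It passed without 0h replicate 2 (-0.49, adjusted p = 0.0406), and without 0h replicate 4, the array with an ACTB difference of 2.28, it was -0.31 (adjusted p = 0.248). The ACTB differences were 0.24 to 0.57 in PEO4 vehicle arrays and 0.50 to 2.28 in PEO4 0h arrays, and their part in the result was not tested. The vehicle change was lower in PEO4 than in PEO1 by 1.01 ± 0.16 (adjusted p = 7.08e-05, with 1.46% called), and by 0.90 without 0h replicate 4.

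In PEO4 the 4OHT and 4OHT+E2 groups lay below 0h by 0.50 ± 0.13 (adjusted p = 0.00881, with 13.8% of probe sets called) and by 0.54 ± 0.13 (adjusted p = 0.00440, with 13.7% called). Vehicle also lay below 0h, by 0.41, and from vehicle these groups differed by only -0.09 and -0.13. The comparisons of these groups with 0h were not refitted without 0h replicate 4, the array with an ACTB difference of 2.28. The order of the group means in PEO4 was 4OHT+E2 (8.38 ± 0.08, SD), 4OHT (8.42 ± 0.15), vehicle (8.51 ± 0.16), ICI (8.51 ± 0.31), ICI+E2 (8.72 ± 0.13), 0h (8.92 ± 0.23) and E2 (10.20 ± 0.23). Neighbours in this order did not differ beyond their spread up to 0h, with adjusted p of 0.409 or more. E2 stood above 0h by 1.28 ± 0.13 (adjusted p = 8.31e-08, with 7.68% called).

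In PEO1 the order was 4OHT (4.93 ± 0.11), ICI (4.997 ± 0.13), 4OHT+E2 (5.09 ± 0.13), 0h (5.17 ± 0.11), ICI+E2 (5.44 ± 0.17), vehicle (5.77 ± 0.20) and E2 (7.74 ± 0.10). The lowest adjusted p between neighbours below vehicle was 0.0820, for ICI+E2 against 0h. Vehicle thus held different places: it was next to E2 in PEO1, and among the 4OHT and ICI groups in PEO4.

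GREB1L, a paralogue measured by probe set 220340_at, was called in 0 of 21 pairs of groups in each line. Its differences ran from -0.21 to 0.15 in PEO4 and from -0.16 to 0.19 in PEO1, with a smallest adjusted p of 0.273 in PEO4 and 0.157 in PEO1.

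Other genes of the estrogen pathway were taken from lists, with 1 probe set per gene. The lists were chosen with earlier results of these data known, so their counts are a description. Of 22 measured receptors and coregulators, 1 was called with E2 in PEO4 and 0 in PEO1, where 1.44% of all probe sets were called in PEO4 and 1.50% in PEO1, the unadjusted p being under 0.05 for 3 genes in PEO4 and 4 in PEO1. The gene in PEO4 was TFAP2C, a transcription factor that binds near the receptor in breast cancer cells, which rose by 0.50 ± 0.05 (adjusted p = 7.60e-07). In PEO1 TFAP2C differed by 0.18 ± 0.05 (adjusted p = 0.0733). ESR1, the gene of estrogen receptor alpha, differed by 0.06 ± 0.06 in PEO4 (adjusted p = 0.971) and by -0.02 ± 0.04 in PEO1 (adjusted p = 0.935). The median change of the list was 0.02 in PEO4 and 0.01 in PEO1, against 0.00 and -0.01 over all probe sets.

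Of 42 measured early estrogen targets other than GREB1, 11 rose with E2 and 0 fell in PEO4, and 14 rose and 0 fell in PEO1. Of all probe sets, 1.11% rose and 0.329% fell in PEO4, and 1.14% rose and 0.360% fell in PEO1. The median change of the list was 0.10 in PEO4 and 0.12 in PEO1. At an unadjusted p under 0.05, 0 were lower in PEO4 and 2 in PEO1. KLF4, a zinc finger transcription factor, rose by 0.97 ± 0.05 in PEO4 and 0.50 ± 0.06 in PEO1. MYC, the proto-oncogene, rose by 0.96 ± 0.10 in PEO4 and 0.23 ± 0.04 in PEO1. CISH, an inhibitor of cytokine signalling, rose in PEO1 by 0.62 ± 0.05 and differed in PEO4 by 0.22 ± 0.07 (adjusted p = 0.177). The response was higher in PEO4 than in PEO1 for KLF4 (0.47 ± 0.08, limma adjusted p = 0.000289) and MYC (0.73 ± 0.11, adjusted p = 3.88e-05) and lower for CISH (-0.39 ± 0.09, adjusted p = 0.0270). Among other early targets read for this difference, CA12 was also lower in PEO4 (-0.34 ± 0.08, adjusted p = 0.0333). MYBL1 (0.36 ± 0.10, adjusted p = 0.107) and SLC7A2 (-0.34 ± 0.15, adjusted p = 0.696) did not pass.

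With ICI+E2 against E2, 12 early targets fell and 0 rose in PEO4, and 17 fell and 1 rose in PEO1. Of all probe sets, 0.968% fell and 0.468% rose in PEO4, and 1.19% fell and 0.689% rose in PEO1. With 4OHT+E2 against E2, 8 fell and 3 rose in PEO4, and 13 fell and 3 rose in PEO1, where 1.53% of all probe sets fell and 2.72% rose in PEO4, and 6.83% fell and 3.16% rose in PEO1. With 4OHT+E2 in PEO4, MYC stood above vehicle by 0.53 ± 0.10 (adjusted p = 0.000946) and KLF4 by 0.51 ± 0.05 (adjusted p = 2.10e-07), while GREB1 differed from vehicle by -0.13 ± 0.13. With 4OHT alone in PEO4, MYC also rose by 0.53 ± 0.10 (adjusted p = 0.00195) and KLF4 by 0.46 ± 0.05 (adjusted p = 2.65e-06). MYC and KLF4 do not stand for the list. Of its 42 measured members, 7 were called higher and 1 lower than vehicle in PEO4, with 4OHT+E2 and with 4OHT alone. In PEO1 6 were higher and 3 lower with 4OHT+E2, and 4 and 3 with 4OHT. Of all probe sets, 3.34% were higher and 1.83% lower with 4OHT+E2 in PEO4, and 2.08% and 1.85% with 4OHT. In PEO1 the shares were 1.92% and 2.94%, and 1.40% and 2.81%, in that order. With ICI alone against vehicle, 0 early targets were called in PEO4 and 3 fell in PEO1, where 0.0765% of all probe sets were called in PEO4 and 0.0585% in PEO1.

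The genes whose pattern was most like that of GREB1 were found by Pearson's r of the 7 group means within a line, among genes whose group means spanned at least 0.5. There were 592 such genes in PEO4 and 279 in PEO1, and all values come from the same arrays, so r describes likeness only. The highest in PEO4 were DEPTOR, an inhibitor of mTOR (r = 0.958, n = 7 group means), TMPRSS3, a membrane serine protease (0.949), CA12, a membrane carbonic anhydrase (0.944), the transcription factor BCL11A (0.938) and the peroxisomal oxidase PIPOX (0.937). The highest in PEO1 were SLC22A5, a carnitine transporter (r = 0.995), PLCL2, a phospholipase C-like protein (0.986), DEPTOR (0.986), PLAT, tissue plasminogen activator (0.985), and NRTN, the growth factor neurturin (0.982). Ranked instead by r over the 28 arrays of a line, 3 of these 5 in PEO4 and 2 of 5 in PEO1 stayed among the 5 highest, and 18 and 15 of the 20 highest were shared.

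The 20 highest of both lines shared 7 genes: SLC22A5, PLCL2, DEPTOR, OLFML3, CA12, the amino acid transporter SLC7A2 and the desmosome-associated KAZN. Since they were chosen for a pattern that peaks with E2, their differences are a description with no test. E2 minus vehicle ran from 0.47 for SLC7A2 to 1.35 for KAZN in PEO4 and from 0.39 for PLCL2 to 1.03 for CA12 in PEO1. For DEPTOR it was 1.19 ± 0.07 in PEO4 and 0.80 ± 0.08 in PEO1. CA12 and SLC7A2 also belong to the list of early targets above. The genes with the lowest r were RNF19A (-0.897), ARID5B (-0.893) and EPHA4 (-0.875) in PEO4, and SOCS6 (-0.949), ARID5B (-0.946) and CITED2 (-0.908) in PEO1. For ARID5B, a chromatin regulator, E2 minus vehicle was -0.59 ± 0.08 in PEO4 and -0.46 ± 0.10 in PEO1.

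**Figure D4:**
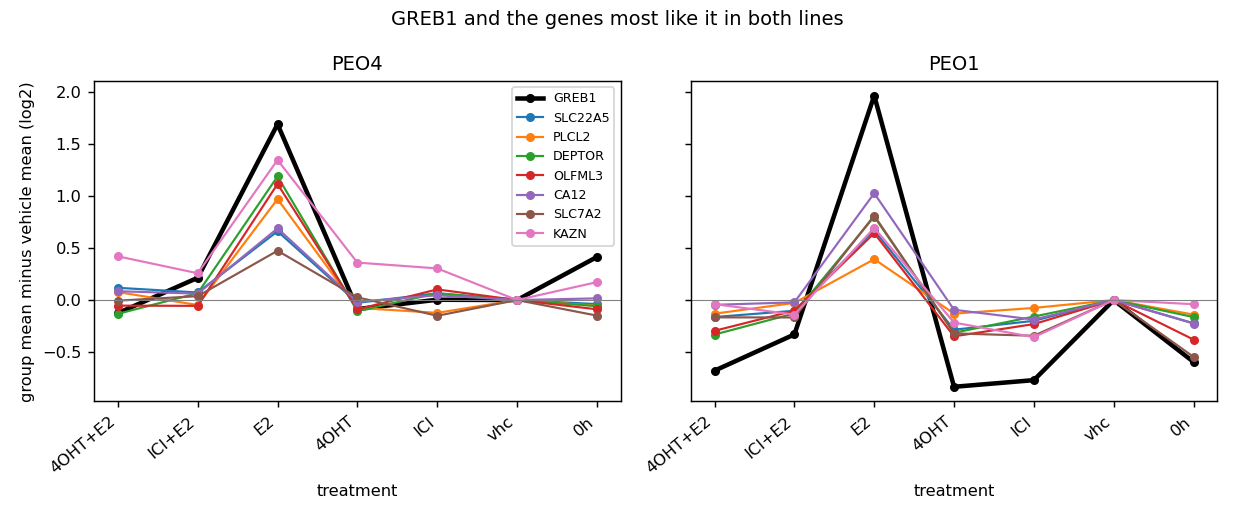
Group mean minus vehicle mean on the log2 scale (y axis) by treatment (x axis) for GREB1 (black) and the 7 genes among the 20 most alike in both lines, PEO4 at the left and PEO1 at the right. Lines join the groups only to guide the eye. E2 is the peak of every gene, and below it GREB1 spans more than the others in PEO1.

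The 10 measured protein-coding genes nearest to GREB1 on chromosome 2, 5 on each side in the order of the RefSeq annotation of GRCh38.p14, were read for the same comparison. In PEO4 none of the 10 was called with E2 by limma, and 2 had an unadjusted p under 0.05. In PEO1 3 rose and 0 fell. Of all probe sets, 1.44% were called in PEO4 and 1.50% in PEO1. KCNF1, a potassium channel subunit, rose by 1.01 ± 0.06 in PEO1 (adjusted p = 2.29e-12) and differed by 0.20 ± 0.08 in PEO4 (adjusted p = 0.393). The E2 response of KCNF1 was lower in PEO4 than in PEO1 by 0.82 ± 0.10 (adjusted p = 4.45e-07).

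The other 2 neighbours called in PEO1 were E2F6, a transcriptional repressor that lies next to GREB1 in that order (0.25 ± 0.05, adjusted p = 0.00355), and LPIN1, a phosphatidate phosphatase (0.26 ± 0.05, adjusted p = 0.00394). E2F6 differed by nearly the same amount in PEO4 (0.26 ± 0.08, adjusted p = 0.131), and its response was not distinguished between the lines (0.00 ± 0.09, adjusted p = 0.999). LPIN1 differed by 0.10 ± 0.05 in PEO4 (adjusted p = 0.746). NTSR2, on the other side of GREB1 from E2F6, and ROCK2, SLC66A3, PDIA6, TRIB2, NBAS and DDX1 were called in neither line.

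**Figure D5:**
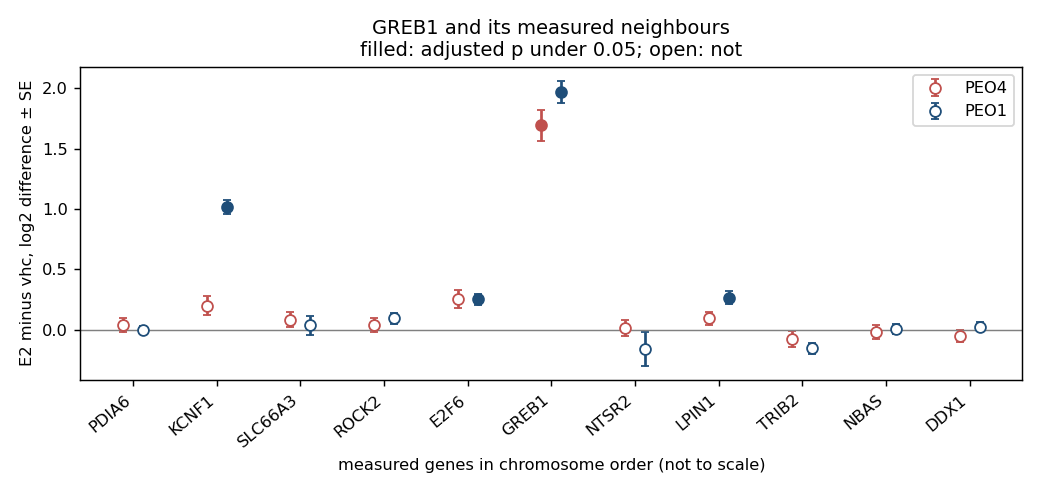
E2 minus vehicle log2 differences with SE (y axis) for GREB1 and its 10 measured neighbours in chromosome order (x axis, not to scale), with PEO4 left of PEO1 at each gene. Filled points have an adjusted p under 0.05. GREB1 is filled in both lines, and KCNF1, E2F6 and LPIN1 in PEO1.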

How the data were processed

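Per the labels and the submitters' processing notes, the authors deposited RMA values on a log2 scale; the RMA version and the genome build are not given in the sources used here. Of 22277 probe sets, 62 controls were set aside, and 19064 carried 1 symbol in the platform annotation. PEO4 and PEO1 had separate fits by limma 3.58.1 under R 4.3.3 (28 arrays, 7 group means, 21 residual degrees of freedom), and line differences in 1 fit of 56 arrays. PEO4 titles reading Tam were taken as 4OHT from the series description. No arrays were identical. The code of the fit was tried on simulated data: of changes of 0.5 in the E2 comparison over 22215 probe sets it recovered 91% in PEO4 and 90% in PEO1. It made 10 false calls in PEO4 and 8 in PEO1. The simulated noise was normal and independent between arrays and probe sets. It held no variation shared by arrays and no arrays of low RNA integrity, so it cannot show how the fit handles those. Replicate labels did not meet the condition for pairing, a correlation over 0.1 in every pair. Named genes were the GREB1 probe sets, the 5 most and 3 least alike genes of a line, those among the 20 most alike in both, up to 4 members of a list by adjusted p for E2, and all neighbours. GREB1L was added as a paralogue, and ESR1 as the receptor, outside this rule. GREB1, the lists and the tests were chosen with earlier results of these data known. Alternative settings were trended robust variances, dropping the dimmest 40 percent of probe sets, 1 probe set per gene, quantile normalization, a replicate block, array weights, fits of the compared groups alone, and arrays left out.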

Additional observations from a re-analysis of the deposited data

Results flagged for a closer look

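At probe set 205862_at, 5 changes differed between the lines, by limma's test of the difference itself over 56 arrays (PEO4 change minus PEO1 change). They were 0.77 for ICI against vehicle, 0.75 for 4OHT against vehicle, 0.82 for ICI+E2 against E2, 0.83 for 4OHT+E2 against E2, and -1.01 for vehicle against 0h. The vehicle arrays enter 3 of these differences and the E2 arrays the other 2.

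In 42 sets of 4 arrays (3 probe sets in 14 groups), 7 held an array whose gap to the nearest other, as a share of the group's range, exceeded Dixon's 95% limit. Chance alone exceeds it in about 1 of 20 sets. For 205862_at this was PEO4 4OHT+E2 replicate 4, at 8.26. For 210562_at the arrays were PEO4 4OHT+E2 replicate 1 (4.21), PEO4 4OHT replicate 2 (4.25), PEO4 vehicle replicate 4 (4.07) and PEO1 4OHT+E2 replicate C (3.77). For 210855_at they were PEO1 4OHT+E2 replicate D (6.002) and PEO1 ICI replicate D (5.66). The last 6 lie in the probe sets with small differences, and no cause was tested.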

How the results depend on the processing

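At probe set 205862_at the calls for E2 against vehicle, for either antagonist with E2 against E2, for both interactions, and for ICI, 4OHT and vehicle in PEO1 kept direction and side of the threshold under every alternative run. The dim filter used the mean of all 56 arrays, so it was no check in PEO1 (percentile 22.7). It and 1 probe set per gene left out the other 2 probe sets. With array weights, the PEO4 differences of 4OHT+E2 from ICI+E2 (-0.33) and of vehicle from 0h (-0.35) passed, as did the line difference for 4OHT+E2 against vehicle (0.61). The PEO4 ICI change reversed to -0.0093 and that of 4OHT+E2 against 4OHT to 0.00040. Quantile normalization also brought vehicle against 0h in PEO4 past the threshold (-0.44) and likewise ICI+E2 against E2 at 210855_at in PEO1 (-0.24, adjusted p = 0.0460). The replicate block brought past it vehicle against 0h in PEO4 (-0.41) and the line difference of 4OHT+E2 against vehicle (0.55), and changed no other GREB1 call. Among all probe sets it moved the PEO4 calls for ICI against vehicle to 56, against 17 without it, and for 4OHT+E2 against 4OHT to 7, against 15. Array weights gave 3117 PEO4 calls for ICI against vehicle and 1722 for ICI+E2 against ICI (main fit 17 and 0). They gave 1768 for 4OHT+E2 against ICI+E2 and 2317 for vehicle against 0h (main fit 712 and 1086). Same-labelled arrays of different groups correlated over 0.1 in their deviations in 36 of 84 pairs in PEO4 and 24 of 84 in PEO1, against 55 of 252 and 60 of 252 differently labelled pairs. In PEO4 18 of 28 arrays and in PEO1 12 of 28 had their highest mean correlation with their own label. At GREB1, PEO1 replicate B lay below its group mean in 6 of 7 groups and replicate C above it in 6 of 7. This is a hint of shared variation from the data, not the design. With only the compared groups fitted, the PEO1 E2 call of 210562_at was lost (adjusted p = 0.104), 4OHT+E2 against ICI+E2 was lost in PEO1 (-0.35) and passed in PEO4 (-0.34), and the line difference for ICI was lost (0.77). Without both PEO4 0h replicate 4 and ICI replicate 1, that line difference was 0.75 and not called, and the PEO4 ICI change was -0.0225.

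Left out one array at a time, results ranged as follows: 4OHT+E2 against ICI+E2 in PEO1 from -0.41 to -0.29; in PEO4, vehicle against 0h from -0.49 to -0.31, ICI against vehicle from -0.11 to 0.14, 4OHT against ICI from -0.22 to 0.0260 and 4OHT+E2 against 4OHT from -0.0747 to 0.0332. Line differences ranged from 0.66 to 0.91 for ICI, from 0.67 to 0.83 for 4OHT, from -0.16 to 0.0900 for 4OHT against ICI and from -0.0494 to 0.0727 for 4OHT+E2 against ICI+E2. For E2 in PEO1, the coregulators called higher numbered 1 in place of 0 with a trended robust variance, the dim filter, quantile normalization, array weights or any probe set of a gene, and 0 to 1 with arrays left out; 1 was lower with quantile normalization. Early targets called lower numbered 1 with the trended variance, the dim filter and array weights, and neighbours called lower 1 with quantile normalization. In PEO4, coregulators called higher numbered 2 with array weights, and neighbours called higher 1 with array weights, with the compared groups alone and without both arrays. Counts over all tested probe sets moved by over 1.5 times in 37 of 40 comparisons under some setting. The dim filter and 1 probe set per gene tested fewer probe sets, so part of this movement is in the number tested. For E2 against vehicle they ran from 254 to 710 in PEO4, against 319 reported, and from 189 to 499 in PEO1, against 333. RMA values hold no measure of signal over background, so no GREB1 probe set has a detection limit. The causes were not tested.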
